A study of Mus musculus with 3 samples.

Results

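Messages of 9 dopamine and noradrenaline receptors were measured on tagged ribosomes of the mouse prefrontal cortex. They were Drd1, Drd2, Drd5, Adra1a, Adra1b, Adra1d, Adra2a, Adra2c and Adrb1, found by symbol among 32531 symbols in the count tables, and 9 of 9 had counts in every library. Adult mice carried the transgene Slc17a6-EGFP/Rpl10a (line JX883), in which the ribosomal protein L10a bears EGFP under control of Slc17a6, the gene of the vesicular glutamate transporter VGLUT2. In translating ribosome affinity purification (TRAP) the tagged polysomes are pulled down with antibodies against EGFP, and the RNA bound to them is sequenced. The 3 libraries form 1 untreated group, each from a pool of 3 mice, so animals within a pool could not be told apart. Input RNA was not analysed here, and a level below is an abundance in the immunopurified RNA, not an enrichment over the tissue. In such RNA, fewer cells that make a message and less message per cell cannot be told apart, nor can messages carried along without a tagged ribosome.

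All of these receptors pass their signal to heterotrimeric G proteins. Gs-coupled receptors raise cyclic AMP through adenylyl cyclase and protein kinase A, Gi-coupled receptors lower it and open potassium channels, and Gq-coupled receptors act through phospholipase C beta and calcium. In the prefrontal cortex dopamine and noradrenaline arrive in axons of midbrain and locus coeruleus neurons, and receptors of both amines shape working memory, attention and arousal there. Each class held 3 of the 9 genes. The Gs class was Drd1, Drd5 and Adrb1, the Gi class Drd2, Adra2a and Adra2c, and the Gq class Adra1a, Adra1b and Adra1d.

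The receptors are paralogs, so how well reads tell them apart bears on every value. Among 36 pairs of coding sequences, taken from GENCODE M21 on mm10, the longest identical run was 26 bases and the median longest run 12.5 bases. In 0 of 36 pairs was any stretch of 50 bases shared, on either strand. The 3 closest pairs are shown with the identical run in capitals and 15 bases on either side in lower case, read 5′ to 3′ on the strand of the gene. The pairs are an alpha2 pair, the D1-type pair and an alpha1 pair.
Adra2a, chr19:54046662-54046717, plus strand: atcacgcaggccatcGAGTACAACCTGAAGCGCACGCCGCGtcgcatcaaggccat
Adra2c, chr5:35280342-35280397, plus strand: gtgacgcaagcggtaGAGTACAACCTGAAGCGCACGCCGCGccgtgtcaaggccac
Drd1, chr13:54053859-54053911, minus strand: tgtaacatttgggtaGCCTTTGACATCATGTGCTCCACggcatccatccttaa
Drd5, chr5:38319996-38320048, plus strand: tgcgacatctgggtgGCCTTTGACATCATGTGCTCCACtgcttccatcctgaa
Adra1a, chr14:66638340-66638389, plus strand: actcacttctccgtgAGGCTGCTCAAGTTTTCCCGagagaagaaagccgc
Adra1d, chr2:131561147-131561196, minus strand: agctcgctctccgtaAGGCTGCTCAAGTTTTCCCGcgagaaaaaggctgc
The run of 23 bases shared by Drd1 and Drd5 lies in the codons of the third transmembrane helix, around the aspartate that binds the amine. The run of 26 bases in the alpha2 pair lies in the second intracellular loop, and that of 20 bases in the alpha1 pair at the end of the third intracellular loop. Adra1b and Adra1d, and Drd2 and Adrb1, also shared runs of 20 bases.

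Gene structure differed among the receptors. Drd1, Drd5, Adra2a, Adra2c and Adrb1 have 1 coding exon, 5 of the 9, and the other 4 have introns within the coding sequence (7 coding exons in Drd2 and 2 in each Adra1 gene). Counts by gene alone do not separate mature message from unspliced RNA or DNA for any of the 9. An annotated antisense gene overlaps 48.6% of the exonic bases of Drd5 and 7.74% of those of Adra1d. The use of strand in counting is not given in the sources used here, and 0% of the exonic bases of the other 7 receptors were shared.

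Levels are given as counts, as CPM (counts per 1000000 counts of all named genes) and, to compare genes, as TPM, which also divides by the length of the merged annotated exons. The 9 receptors reached 1 CPM in every library, against 37.9% of all symbols and 67.0% of symbols with a count. These 9 were chosen with earlier results known, and 0 of the 5 other catecholamine receptor genes reached that level. The 9 of 9 is therefore not a result about the receptor family. The median of the 9 was 27.6 TPM, beside 26.2 TPM over the 11964 genes with a length that reached 1 CPM in every library. The 9 were therefore messages of middling abundance, from rank 3553 (Adra1d) to rank 11082 (Drd5) by TPM.

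**Figure D1:**
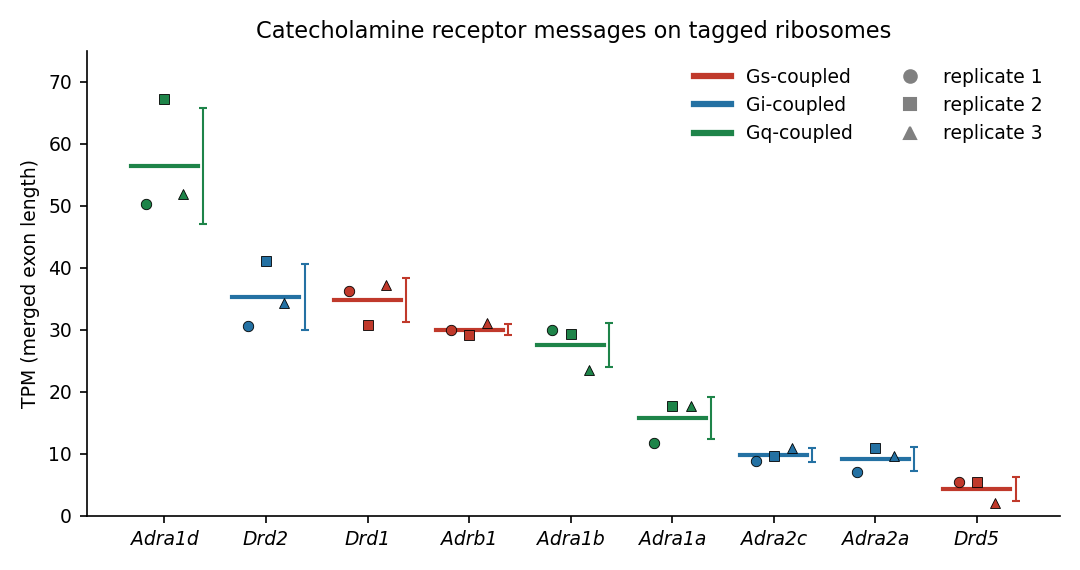
TPM of the 9 receptors (vertical axis, linear, from 0) in order of mean level, with 1 point per library, a bar at the mean and a bracket of 1 SD over 3 libraries, coloured by G protein coupling. Adra1d stood highest at 56.4 TPM and Drd5 lowest at 4.29 TPM, and Drd2, Drd1, Adrb1 and Adra1b lay together between 27.6 and 35.3 TPM.

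Of the Gs-coupled receptors, Drd1 and Adrb1 were at like levels and Drd5 far lower. Drd1 (ENSMUSG00000021478.6, mm10 chromosome 13, 54051183 to 54055705), the main D1-type dopamine receptor of the forebrain, had 340, 204 and 349 counts in replicates 1, 2 and 3, or 27.0, 22.8 and 27.6 CPM. Adrb1 (ENSMUSG00000035283.5, chromosome 19, 56722199 to 56733113), the beta1 adrenergic receptor, had 261, 180 and 271 counts, or 20.7, 20.1 and 21.4 CPM. Adrb1 was the steadiest of the 9, and its libraries lay within 0.09 of each other on the log2 scale.

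Drd5 (ENSMUSG00000039358.3, chromosome 5, 38319367 to 38322518), a D1-type receptor with higher affinity for dopamine, had 44, 31 and 17 counts, or 3.49, 3.46 and 1.34 CPM. Replicates 1 and 2 were alike and replicate 3 was lower. The exact 95% Poisson intervals, which cover counting error only, were 2.54 to 4.69, 2.35 to 4.91 and 0.783 to 2.15 CPM, so that of replicate 3 did not reach the other two. Per length, Drd1 averaged 34.8 ± 3.51 TPM and Drd5 4.29 ± 1.91 TPM (SD, n = 3). Drd1 exceeded Drd5 by 2.72, 2.49 and 4.09 log2 units in the 3 libraries, or 8.60-fold on average (SD 0.86 log2 units). An exact permutation of signs over libraries, two-sided, gave p = 0.25, the smallest possible with 3 libraries, and an adjusted p of 0.344 over 11 pairs of receptors. No pair could therefore pass 0.05. With only the exonic bases that no other gene shares as length, Drd5 stood at 7.75 TPM, Drd1 minus Drd5 was 2.16 log2 units, against 3.10 with all exonic bases, and the distance of Drd5 below Adra2a shrank to 0.23 log2 units, against 1.17 with all exonic bases.

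Of the Gi-coupled receptors, Drd2 stood well above both alpha2 genes, which were close to each other. Drd2 (ENSMUSG00000032259.8, chromosome 9, 49340627 to 49408177), the D2 dopamine receptor and target of antipsychotic drugs, had 201, 191 and 225 counts, or 15.96, 21.3 and 17.8 CPM. It was highest in replicate 2, where Drd1 was lowest. Drd2 averaged 35.3 ± 5.31 TPM, and the Drd2 minus Drd1 difference was -0.25, 0.41 and -0.12 log2 units in replicates 1, 2 and 3. The mean of 0.01 ± 0.35 was smaller than its spread (exact permutation of signs, p = 1 and adjusted p = 1), so the order of the main D1-type and D2-type messages was not resolved.

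Adra2a (ENSMUSG00000033717.6, chromosome 19, 54044151 to 54048982), the alpha2A receptor through which guanfacine acts, had 87, 96 and 120 counts, or 6.91, 10.7 and 9.49 CPM. Adra2c (ENSMUSG00000045318.6, chromosome 5, 35278319 to 35281763), the alpha2C receptor, had 78, 61 and 97 counts, or 6.19, 6.80 and 7.67 CPM. Their libraries overlapped on the TPM scale, at 6.98 to 10.9 TPM for Adra2a and 8.77 to 10.9 TPM for Adra2c. Adra2c minus Adra2a averaged 0.11 ± 0.25 log2 units, in that direction in 2 of 3 libraries (exact permutation of signs, p = 0.5 and adjusted p = 0.611). With member lengths taken within the RefSeq gene ends, the difference turned to -0.15.

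The Gq-coupled receptors are the alpha1 adrenergic receptors, and by counts they were the most alike of the classes. Adra1a (ENSMUSG00000045875.13, chromosome 14, 66635251 to 66771168) had 265, 281 and 398 counts, or 21.04, 31.4 and 31.5 CPM, with replicate 1 apart from the others. Adra1b (ENSMUSG00000050541.14, chromosome 11, 43774606 to 43901210) had 261, 181 and 205 counts, or 20.7, 20.2 and 16.2 CPM. Adra1d (ENSMUSG00000027335.9, chromosome 2, 131545850 to 131562283) had 246, 233 and 254 counts, or 19.5, 26.0 and 20.1 CPM. In CPM the libraries of Adra1d overlapped with those of both other genes.

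Length set the alpha1 genes apart. The merged exons of Adra1a span 8728 bases over 6 annotated transcripts, against 3382 bases for Adra1b and 1899 for Adra1d, and the longest Adra1a transcript has 4282 bases. Per length, Adra1d stood at 50.2, 67.2 and 51.8 TPM, above every library of every other receptor. Adra1b stood at 29.9, 29.3 and 23.5 TPM and Adra1a at 11.8, 17.6 and 17.7 TPM, and neither overlapped with Adra1d. Adra1d exceeded Adra1b by 1.03 ± 0.24 log2 units and Adra1a lay below Adra1d by a log2 difference of -1.85 ± 0.28, each in 3 of 3 libraries (exact permutation of signs, p = 0.25 and adjusted p = 0.344). Adra1b minus Adra1a was 0.83 ± 0.47, but with the longest transcript as length it became -0.17, and Adra1a minus Adra1d became -0.83. Adra1a was then at 24.2 TPM and Adra1b at 21.1 TPM.

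The lead of Adra1d over Drd1 did not hold beyond the spread with a longer gene model. RefSeq on GRCm38.p6, the patched mm10 assembly, ends Adra1d 707 bases beyond the GENCODE gene, and the annotation used for counting is not given in the sources used here. With lengths within the RefSeq ends, a setting chosen after seeing the data, Adra1d stood at 41.1 ± 6.82 TPM, still the highest mean, followed by Drd1 at 35.3 ± 3.55, Adrb1 at 33.5 ± 1.07 and Drd2 at 31.9 ± 4.81 TPM. Per library, Adra1d then stood at 36.6, 48.9 and 37.8 TPM and Drd1 at 36.8, 31.2 and 37.8 TPM, so only replicate 2 set Adra1d apart from Drd1. Adra1d minus Drd1 was 0.21 ± 0.38 log2 units with these lengths, against 0.69 ± 0.38 with the merged exons. Adra1d minus Drd2 became 0.36 and Adra1d minus Adra1b 0.59. Both were smaller than with merged exons but still had 1 direction in all libraries (exact permutation of signs, p = 0.25).

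In the order of mean TPM, from Adra1d through Drd2, Drd1, Adrb1, Adra1b, Adra1a, Adra2c and Adra2a to Drd5, the 8 steps between neighbours differed in how far they cleared their spread. Adra1d minus Drd2 was 0.67 ± 0.07 log2 units, the step with the smallest SD. Drd1 minus Adrb1 was 0.21 ± 0.11, Adra1b minus Adra1a 0.83 ± 0.47, Adra1a minus Adra2c 0.66 ± 0.22 and Adra2a minus Drd5 1.17 ± 0.91. With the longest transcripts as lengths, Drd1 minus Adrb1 shrank to 0.03 and no longer had 1 direction in all libraries (exact permutation of signs, p = 0.75), and Adra1a minus Adra2c widened to 1.67. With merged exon lengths these 5 steps were larger than their SD and had 1 direction in 3 of 3 libraries (exact permutation of signs, p = 0.25 and adjusted p = 0.344). Drd2 and Drd1, Adrb1 and Adra1b (0.13 ± 0.23), and Adra2c and Adra2a did not differ beyond their spread. Adrb1 and Adra1b had the same merged length and the same 261 counts in replicate 1.

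Seen as a pool, the receptor messages held more of the Gq class than of the others, by a margin that depended on the gene lengths used. With merged exon lengths, dopamine and noradrenaline receptors each held close to the share that their number of genes gives. The summed level of the 9 genes was 210, 241 and 218 TPM in replicates 1, 2 and 3. Gs-coupled receptors made up 34.1%, 27.1% and 32.3% of it, Gi-coupled receptors 22.1%, 25.6% and 25.1%, and Gq-coupled receptors 43.8%, 47.3% and 42.6%. By gene number each class would hold 33.3%. The Gq share was the highest and the Gi share the lowest in every library. Gs and Gi lay close in replicate 2 and further apart in the other two.

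The 6 noradrenaline receptors together held 66.6% ± 1.24 of the pool and the 3 dopamine receptors 33.4% ± 1.24 (SD, n = 3). By gene number alone the shares would be 66.7% and 33.3%, within the SD of those measured. Adra1d by itself held 25.2% ± 2.33, Drd2 15.8% ± 1.23, Drd1 15.7% ± 2.56 and Adrb1 13.5% ± 1.24. Drd1 supplied 12.8% of the pool in replicate 2, against 17.3% and 17.1% in replicates 1 and 3. The shares moved with the lengths used. With the longest transcripts the Gq share was 47.5% and the Gs share 30.4%. Within the RefSeq ends the Gq share was 39.6% and the Gs share 34.8%. The Gq class thus had the highest mean share under both, but by a smaller margin within the RefSeq ends. The dopamine share was 30.7% with the longest transcripts, below its share by gene number beyond the SD, and 33.95% within the RefSeq ends. Shares of message say nothing of receptor protein.

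**Figure D2:**
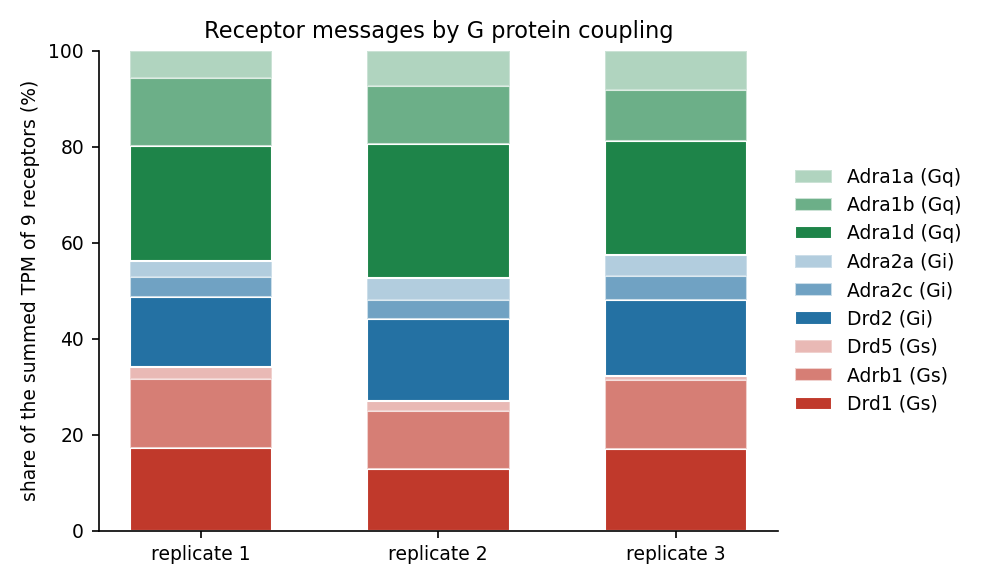
Share of the summed TPM of the 9 receptors (vertical axis, percent, from 0 to 100) held by each gene in each of the 3 libraries, stacked from Gs (red) through Gi (blue) to Gq (green). The Gq-coupled genes held 42.6% to 47.3% and the Gi-coupled genes 22.1% to 25.6%.

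The next question was whether any receptor varied between libraries beyond genes of like abundance. A negative binomial model with a single mean was fitted across 14774 genes in edgeR, and 0 of 9 receptors varied at an adjusted p of 0.05, where 0.244% of all genes tested did. At an unadjusted p of 0.05 the count was also 0 of 9, against 7.22% of all genes tested, and a limma variance test and DESeq2 size factors gave 0 as well. With a common dispersion for all genes the count was again 0 of 9, where 7.43% of all genes were called. The receptor with the lowest p in edgeR was Adra1a (adjusted p = 1). These counts do not show that the receptors were constant, since changes, and not only small ones, can be missed with 3 libraries. Over the 3 libraries the receptors ranged over a median of 0.40 log2 units, from 0.09 for Adrb1 to 1.11 for Drd5, beside a median of 0.51 over all genes tested.

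The spread was also set beside that of counting. Adrb1 had a coefficient of variation of 3.24% where its counts alone give 6.58%, and Adra2c 10.8% where counts give 11.4%, so 2 of 9 varied less than counting error. Adra1a had 21.4% against 5.71% from counting, and it was the only receptor whose coefficient of variation exceeded the 18.8% that the fitted trend assigns to its abundance. Drd5, with 92 counts in all, had 44.5% against 18.3% from counting and 54.3% from the trend.

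**Figure D3:**
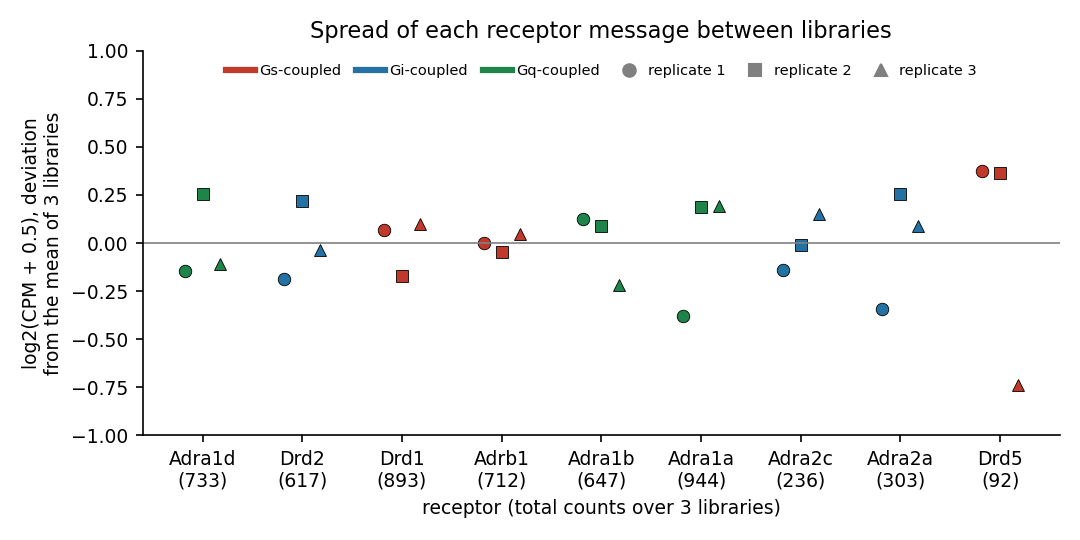
Deviation of log2(CPM + 0.5) from the mean of the 3 libraries (vertical axis) for each receptor, with 1 point per library and the total counts in brackets. Drd5, with 92 counts, spread most, Adra1a and Adra2a were lower in replicate 1, and Adrb1 lay within 0.09 log2 units.

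The catecholamine receptor genes outside these 9 were near the floor. None of the 5 reached 1 CPM in every library. Drd3, a D2-type receptor, had 27, 3 and 4 counts in replicates 1, 2 and 3, so that replicate 1 held most of them (adjusted p = 0.996 in edgeR, but 0.0270 with a common dispersion). Drd4 had 0 counts in all libraries, and a floor of 3 counts per library corresponds to 0.238, 0.335 and 0.237 CPM. The exact 95% Poisson upper limits were 0.293, 0.411 and 0.292 CPM. Adra2b had 4, 1 and 13 counts and Adrb3 9, 10 and 0, and 24.9% of the exonic bases of Adrb3 are shared with an antisense gene. With all 14 genes the dopamine share of the pool was 34.0%.

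Drd1 and Drd2 are also abundant in striatal projection neurons, so markers of those cells were set beside them. All 10 of 10 striatal markers reached 1 CPM in every library, 0 of them had no counts, and 10 of 10 were highest in replicate 3. Their summed level was 485, 654 and 759 CPM in replicates 1, 2 and 3. Penk, the enkephalin precursor gene and the highest marker by TPM too (602 ± 156 TPM), stood at 142, 223 and 238 CPM (adjusted p = 0.281 in edgeR). Gpr6, an orphan receptor and the lowest, stood at 3.10, 1.34 and 4.82 CPM. Adora2a, the adenosine receptor that marks D2-type striatal neurons, stood at 3.73, 3.79 and 12.4 CPM.

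Drd1 was highest in replicate 3 and lowest in replicate 2, the same order as 2 of the 10 markers, Rgs9 (34.0, 22.4 and 41.8 CPM) and Gpr6. Drd2 was highest in replicate 2 and lowest in replicate 1, and 8 of the 10 markers were lowest in replicate 1. Drd1 equalled 5.56%, 3.48% and 3.64% of the summed striatal markers in replicates 1, 2 and 3, and Drd2 3.29%, 3.26% and 2.34%. What part striatal RNA has in the levels of Drd1 and Drd2 was not tested.

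**Figure D4:**
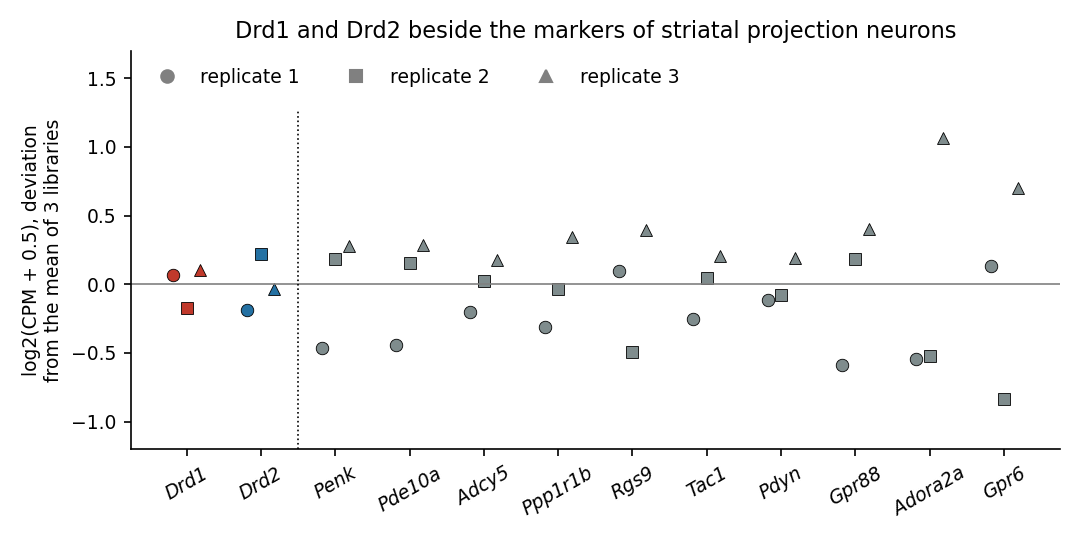
Deviation of log2(CPM + 0.5) from the mean of the 3 libraries (vertical axis) for Drd1 and Drd2, left of the dotted line, and for 10 markers of striatal projection neurons in order of level. Each marker was highest in replicate 3. Drd1 was close in replicates 1 and 3 (27.0 and 27.6 CPM) and lowest in replicate 2, and Drd2 was highest in replicate 2.

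Other cell types also contain these receptors, such as astrocytes and oligodendrocyte precursors for the adrenergic ones. For each list of markers the genes with the most and the fewest counts are named, with their levels in TPM. The 8 astrocyte markers all reached 1 CPM in every library and summed to 1355, 1506 and 1550 CPM. Slc1a2, which encodes an astrocytic transporter that clears glutamate, had the most counts (367 ± 27.0 TPM) and Aldh1l1 the fewest (6.15 ± 2.37 TPM). The 5 precursor markers also did so and summed to 62.5, 79.1 and 90.1 CPM, with Lhfpl3 at 58.2 ± 12.5 TPM and Cspg4 at 1.999 ± 0.365 TPM. Both sums were lowest in replicate 1, as were 5 of the 9 receptors (Drd2, Adra1a, Adra1d, Adra2a and Adra2c). Of the other marker lists, the striatal, oligodendrocyte, microglial and cortical excitatory sums were also lowest there. The GABAergic sum was lowest in replicate 2. The thalamic, olfactory, catecholamine neuron, and endothelial and mural sums were lowest in replicate 3. None of the astrocyte and precursor markers was at 0 in all libraries. The 9 GABAergic markers summed to 939, 936 and 992 CPM, with Gad2 at 521 ± 36.2 TPM and Dlx2 at 2.19 ± 0.990 TPM, and 8 of them reached 1 CPM in every library. The part of these cells in the receptor levels was not tested.

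Markers of cortical excitatory neurons had the highest sum of the marker lists, at 5164, 5171 and 5477 CPM. All 9 of 9 reached 1 CPM in every library. Camk2a had the most counts (2884 CPM on average, 1891 ± 178 TPM) and Emx1 the fewest (6.72 ± 3.48 TPM). The list also holds Slc17a6, the gene whose control drives the tag (831 CPM on average, 754 ± 87.6 TPM). Camk2a and Slc17a6 together made up most of the sum, so it is not a measure of cortical excitatory identity. Per length the list summed to 3984 TPM, against 1919 TPM for GABAergic, 1060 TPM for astrocyte and 980.5 TPM for striatal markers. Most of the GABAergic sum came from Sst (1210 ± 347 TPM) and most of the striatal sum from Penk (602 ± 156 TPM). The lists hold unlike genes, so these sums are not shares of cells. Microglial markers summed to 30.9, 32.7 and 35.9 CPM, with Csf1r at 11.03 ± 3.35 TPM and C1qa at 0 counts. Endothelial and mural markers summed to 34.5, 31.8 and 29.5 CPM, with Rgs5 at 18.7 ± 2.79 TPM and Cldn5 at 0.182 ± 0.316 TPM. Oligodendrocyte markers summed to 326, 459 and 461 CPM, with Mbp at 101 ± 15.5 TPM and Opalin at 1.61 ± 0.972 TPM. Thalamic markers summed to 306, 287 and 268 CPM, with Rora at 59.2 ± 6.53 TPM and Gbx2 at 0 counts, and Tcf7l2 varied between libraries (adjusted p = 0.0429 in edgeR). Olfactory bulb markers summed to 170, 146 and 64.1 CPM, with Cdhr1 at 116, 95.9 and 17.3 CPM, which also varied (adjusted p = 2.28e-15 in edgeR), and Tbx21 at 2.70, 1.45 and 0 CPM. Drd3 and the olfactory sum were both highest in replicate 1, but the olfactory marker Trh stood at 15.5, 30.6 and 40.0 CPM and was lowest there. The part of olfactory tissue in Drd3 was not tested.

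Catecholamine neurons send axons to the cortex but have their cell bodies elsewhere. Their highest marker was near the level of Adra1a (15.7 ± 3.4 TPM) and their lowest near 0. Th, the rate-limiting enzyme of catecholamine synthesis, stood at 16.3 ± 2.56 TPM and was the highest of 6 markers, of which 3 reached 1 CPM in every library. Ddc, which makes dopamine from its precursor, stood at 8.37 ± 2.50 TPM. Dbh, which turns dopamine into noradrenaline, had 0.397, 1.12 and 0.237 CPM. Slc6a3, the dopamine transporter gene, had 0.159, 0.446 and 0.0791 CPM, and Slc6a2, the noradrenaline transporter gene, was lowest with 0, 0 and 1 counts.

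Most genes downstream were above every receptor in TPM. Of 44 pathway genes on 9 lists, which include the 5 other receptors, 37 reached 1 CPM in every library. In edgeR 0 of the 41 tested varied between libraries at an adjusted p of 0.05, where 0.244% of all genes tested did. At an unadjusted p of 0.05 the count was 2 of 41, Gna11 and Grk5, both in edgeR and in the limma variance test. In edgeR 7.22% of all genes tested were under that threshold. With a common dispersion 2 other genes of the 41 were called, Adrb3 and Drd3, where 7.43% of all genes were called.

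The Gs-coupled receptors summed to 69.1 ± 3.36 TPM, against 1405 ± 55.5 TPM for Gnas, the Gs alpha subunit gene, and 307 ± 33.6 TPM for Gnal, the Golf subunit through which Drd1 signals in striatum. Adenylyl cyclases reached 1 CPM in every library in 8 of 9 cases. The calcium-stimulated Adcy1 was the highest at 174 ± 5.35 TPM, and Adcy4 was the lowest with 1, 0 and 0 counts. Protein kinase A subunits and DARPP-32 all did so (7 of 7), with the catalytic subunit gene Prkacb at 633 ± 48.8 TPM and Ppp1r1b, the gene of DARPP-32, at 106 ± 24.9 TPM. Ppp1r1b is also on the striatal list and stood at 50.1, 60.9 and 79.3 CPM.

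The Gi-coupled receptors summed to 54.2 ± 7.66 TPM, against 2715 ± 34.8 TPM for the 5 Gi and Go alpha subunit genes. Gnao1, with the most counts of these, stood at 858 ± 2.98 TPM, and Gnai3 was the lowest at 53.1 ± 7.18 TPM. The Gq-coupled receptors summed to 99.6 ± 12.5 TPM, against 325 ± 37.0 TPM for Gnaq and 171 ± 35.2 TPM for Gna11. Gna14, the third Gq-type subunit gene, had 0.556, 2.68 and 0.632 CPM. Of the phospholipase C beta genes, which Gq activates, Plcb1 stood highest at 162 ± 8.02 TPM and Plcb2 lowest at 1.88 ± 0.824 TPM.

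Genes that end the signal were measured in the same way. The receptor kinases and arrestins all reached 1 CPM in every library (6 of 6), with Arrb1, the gene of beta-arrestin 1, highest at 136 ± 12.8 TPM and the kinase gene Grk6 at 16.3 ± 2.73 TPM. Grk5, another receptor kinase gene, stood at 16.5, 8.26 and 22.1 CPM. Of the genes that break catecholamines down, the monoamine oxidase gene Maob was the lowest at 20.7 ± 2.66 TPM.

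**Figure D5:**
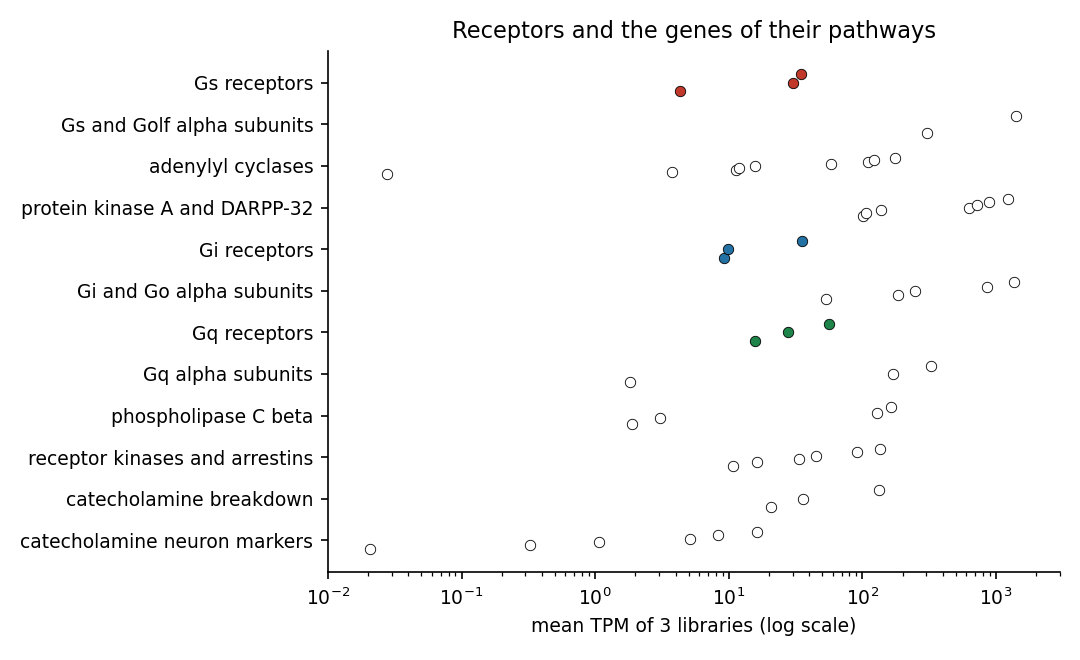
Mean TPM over 3 libraries (horizontal axis, log scale) of each receptor (filled) and of each gene on the pathway lists and among the catecholamine neuron markers (open), with 1 row per list. The receptors lay between 4.29 and 56.4 TPM and the Gs alpha subunit gene Gnas at 1405 TPM.

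The receptor with the widest range over libraries was Drd5. Among 10527 other genes averaging at least 5 CPM, those whose log2 CPM deviated most like it included Rbm28 (29.5, 28.9 and 13.5 CPM) and Lhx1os (6.19, 6.36 and 2.69 CPM), at distances of 0.02 and 0.04 log2 units over the 3 libraries. In all 50 genes lay within 0.2, so with 3 libraries this likeness is shared by many genes.

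The counts of named genes per library were 12592174, 8964137 and 12648577 in replicates 1, 2 and 3, so that replicate 2 was the shallowest. The labels call the libraries separate samples of pooled mice. P-values therefore measure the spread between these pools, part of which may be technical.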

How the data were processed

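Each of the 3 libraries has a table of raw counts by gene symbol, made and deposited by the authors. Per the submitters' processing notes, the tools were STAR 2.0.0e and HTSeq and the build was mm10. Rows that name no gene, 27.2% to 28.3% of all counts, were left out. Depth was 8964137 to 12648577 counts per library.

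CPM and TPM were computed here from the deposited counts. Exon lengths of 90.0% of symbols with a count were read from GENCODE M21 (mm10), by symbol or a unique RefSeq synonym. Pairs of receptors were compared within libraries on log2(TPM + 0.1) with an exact sign-flip permutation test. Variation between libraries was tested by how well a model with 1 mean per gene fitted in edgeR 4.0.16 (TMM, trended dispersion, chi-square with 2 degrees of freedom, genes with at least 10 counts in a library, Benjamini-Hochberg), since 1 group gives no contrast, and was tested on simulated data. Alternatives used limma 3.58.1 and DESeq2 1.42.0 in R 4.3.3. Python 3.11.15 with numpy 2.4.6, pandas 2.3.3 and scipy 1.17.1 was used. Intervals and floors hold for counting error alone, as PCR copies could not be recognised.

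The members and lists were chosen with earlier results of these data known. The rule named every receptor, the highest and lowest gene of each list, called genes and genes at 0; Gna11, Grk5, Adora2a, Rgs9, Trh, Ddc, Dbh and Slc6a3 lie outside it and were chosen after their values were seen. Some genes that the rule names are not reported here.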

Additional observations from a re-analysis of the deposited data

How the results depend on the processing

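Of 88 recomputed differences between pairs of receptors, 82 kept their direction. This count overstates stability, since some settings leave a difference within a library nearly unchanged by construction. These are CPM per kilobase, a pseudocount of 0.5 TPM and, for pairs without Drd5 or Adra1d, lengths of unshared exonic bases. Drd2 minus Drd1 (main 0.01) became -0.0060 with the longest transcripts and -0.15 within the RefSeq gene ends, and lay between -0.18 (without replicate 2) and 0.15 (without replicate 1). Adra1b minus Adra1a became -0.17 with the longest transcripts, Adra2c minus Adra2a -0.15 within the RefSeq ends and Adrb1 minus Adra1b lay between -0.0040 (without replicate 3) and 0.20 (without replicate 2). With the longest transcripts the Gi, Gq and dopamine shares were 22.1%, 47.5% and 30.7%. Within the RefSeq ends the Gq share was 39.6% and the Gs share 34.8%. Genes varying between libraries numbered 36, against 59 with a count minimum of 30, 1097 with a common dispersion, 12 with the limma variance test, 18 at an adjusted p of 0.01 and 16 to 21 with a replicate left out. Receptors varying between libraries numbered 0 under each of these and with DESeq2 size factors or a count minimum of 1. The lengths differ by construction; the cause of the other shifts was not tested. No paired analysis was possible because all libraries belong to 1 group, so no samples pair across groups. Depth limits Drd5 and the 5 receptors under 1 CPM.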
